A study of Mus musculus with 24 samples.

Results

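In bone marrow-derived macrophages (BMDMs) that had received no inflammatory stimulus, siRNA against Ctbp2 left 34.5% of the Ctbp2 transcript and was accompanied by small changes in few genes. Antiviral genes that interferon induces were the list with the most members that rose, with Ifit1, Ifit2, Ifit3, Isg15 and Rsad2 in it. It was also the longest list, and the lists were written with earlier results of these data known. Il1rn, Slamf9 and Ctss also rose, and Cd28, Hdlbp, Ptma and Washc5 were among the genes that fell. The comparison uses 6 of the 24 samples in the series, chosen by their labels alone: 3 libraries of Ctbp2 siRNA cells and 3 of control siRNA cells, all given vehicle.

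The groups used here were, in vehicle, Ctbp2 siRNA, Ctbp1 siRNA and control siRNA (3 libraries each) and, in lipopolysaccharide (LPS, a bacterial cell wall component), Ctbp2 siRNA and control siRNA (3 libraries each). The 3 Ctbp1 siRNA libraries in LPS entered no comparison, only the estimate of the spread and the filter on low genes. All of these cells were grown from the bone marrow of male C57BL6/N mice aged 6 to 12 weeks, which carry no engineered allele in the labels, and were differentiated until day 6 in medium with L929 supernatant before they were plated in serum-free macrophage medium. Vehicle was PBS, LPS was given at 100 ng/ml, and RNA was taken after 4 h of either. The labels give neither the siRNA sequences, nor whether each siRNA was a single duplex or a pool, nor the time between siRNA and harvest, so effects of a given siRNA outside its target cannot be told apart from effects of losing the target. The replicates are labelled biological and are numbered 1, 3 and 4, but whether they came from separate mice or cultures is not stated, so p-values measure the spread between these samples.

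C-terminal binding proteins are nuclear co-repressors that do not read DNA themselves. They are brought to genes by DNA-bound partners such as ZEB and Krüppel-like factors and carry histone deacetylases, the demethylase LSD1 (Kdm1a) and the methyltransferases Ehmt1 and Ehmt2 with them. CtBP1 and CtBP2 are close paralogs. The interferon-stimulated genes encode antiviral proteins and are switched on by transcription factors that bind promoter sequences built from repeated GAAA units, and macrophages hold many of them at a low level at rest.

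Such sequences are shown here because interferon-stimulated genes led the genes that rose. In the window from 250 bases before to 50 bases after the annotated start (RefSeq, GRCm38.p6), a core of GAAA, any 2 bases and GAAA again was searched on both strands, where the other strand reads TTTC, any 2 bases and TTTC. It was present for 9 of the 29 genes that rose and have a window (31.0%), for 1 of 32 that fell (3.12%), for 273 of 6272 tested genes with a window (4.35%) and for 3.99% of all 27025 genes with one. The genes with a match were B2m, Ctss, Ifit1, Ifit3, Ifitm3, Isg15, Rsad2, Shisa5 and Tgtp2 among those that rose, and Ctbp2 itself among those that fell. Within the list of antiviral effectors, 18 of the 40 members with a window held the core (45.0%), so its share among the genes that rose is not separate from the share of this list among them. Capitals mark the core in these stretches, given 5′ to 3′ on the gene's own strand, each lying upstream of the start:
Ifit1, chr19:34640765-34640833, plus strand: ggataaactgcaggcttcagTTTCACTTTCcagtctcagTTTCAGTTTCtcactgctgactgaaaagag
Ifit3, chr19:34583387-34583436, plus strand: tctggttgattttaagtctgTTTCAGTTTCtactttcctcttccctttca
Isg15, chr4:156200855-156200916, minus strand: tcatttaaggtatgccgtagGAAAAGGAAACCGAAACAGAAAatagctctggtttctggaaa
Rsad2, chr12:26456543-26456592, minus strand: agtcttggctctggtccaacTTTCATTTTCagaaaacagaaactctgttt
Tgtp2, chr11:49064253-49064302, minus strand: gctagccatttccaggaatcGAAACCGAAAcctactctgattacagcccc
B2m, chr2:122147528-122147577, plus strand: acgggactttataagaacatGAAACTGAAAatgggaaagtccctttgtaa
Ctss, chr3:95526745-95526785, plus strand: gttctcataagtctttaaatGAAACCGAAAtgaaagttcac
Ctbp2, chr7:133015314-133015363, minus strand: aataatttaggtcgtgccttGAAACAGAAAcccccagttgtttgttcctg
In Isg15 several overlapping matches run together, and in Ifit1 a pair lies 9 bases apart. A match describes letters and shows no binding. The E-box CAGGTG (other strand CACCTG), the sequence that the CtBP partner ZEB1 reads, was present for 17.2% of the genes that rose, 9.38% of those that fell and 18.8% of the tested genes. The STAT sequence TTCNNNGAA was present for 17.2%, 18.8% and 7.86%, and the AP-1 sequence TGANTCA for 27.6%, 6.25% and 6.15%, in the same order. Both of these read alike on either strand, and matches of different motifs may overlap.

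Levels are in TPM, which divides by transcript length and scales each library to a fixed sum, so depth per library is unknown. The TPM of a library summed to between 999839 and 999944, and 12102 to 12152 genes reached 1 TPM with Ctbp2 siRNA, against 12184 to 12259 with control siRNA. A fold change is limma's coefficient on log2(TPM + 1), which understates the change of low genes, and a gene was called where limma's Benjamini-Hochberg adjusted p, over the 7918 genes that averaged 10 TPM or more in the BMDM libraries, was under 0.05. The cells had the macrophage markers of their label: Lyz2 averaged 9044 TPM with Ctbp2 siRNA and 9222 TPM with control siRNA, and the summed level of the macrophage list was 37000 to 39400 TPM with Ctbp2 siRNA, against 37600 to 39100 TPM with control siRNA. Of its 28 tested members 0 were called. Without overlap, 8 of the 28 were higher, beside 7.03% of all tested genes, and 1 was lower, beside 16.3%. The authors' deposited table has 5 members of this list higher and 0 lower at its own adjusted p. Neutrophil markers summed to 106 to 165 TPM with Ctbp2 siRNA, against 133 to 197 TPM with control siRNA, with 0 of 7 tested members called, all 7 estimates below 0 and Elane, named after its values were seen, at 0. Dendritic cell markers summed to 503 to 530 TPM with Ctbp2 siRNA, against 419 to 457 TPM with control siRNA, with 0 of the 2 tested members, Itgax and Bst2, called, and macrophages also express both. Both were higher without overlap, beside 7.03% of all tested genes. Bst2 made up most of the sum, at 336 TPM on average over the 6 libraries. In the authors' deposited table Bst2 has a log2 fold change of 0.31 with an adjusted p of 0.00674. The part of these markers in the results below was not tested. Lymphocyte markers summed to 3.43 to 6.11 TPM with Ctbp2 siRNA, against 3.36 to 4.37 TPM with control siRNA, and stromal, mast cell and red cell markers to at most 2.12 TPM in any of these libraries. In bulk RNA, fewer cells of a type and less RNA per cell cannot be told apart.

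The targeted transcript fell. Ctbp2 measured 20.4, 16.9 and 17.2 TPM with Ctbp2 siRNA, 57.7, 56.0 and 50.3 TPM with Ctbp1 siRNA, and 52.0, 51.6 and 54.2 TPM with control siRNA. Every Ctbp2 siRNA library was below every other library, with 34.5% of the control mean left (log2 fold change −1.49, SE 0.09, limma adjusted p = 5.69e-08). Its paralog Ctbp1 measured 143, 148 and 128 TPM with Ctbp2 siRNA, 59.4, 55.5 and 57.1 TPM with Ctbp1 siRNA, and 143, 141 and 130 TPM with control siRNA. The Ctbp2 siRNA and control values overlapped (log2 fold change 0.02, 95% interval −0.12 to 0.15, limma adjusted p = 0.95). In these cells, per length, Ctbp1 was the more abundant transcript, at 138 ± 7.12 TPM against 52.6 ± 1.41 TPM of Ctbp2 in control siRNA cells (SD, n = 3).

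**Figure D1:**
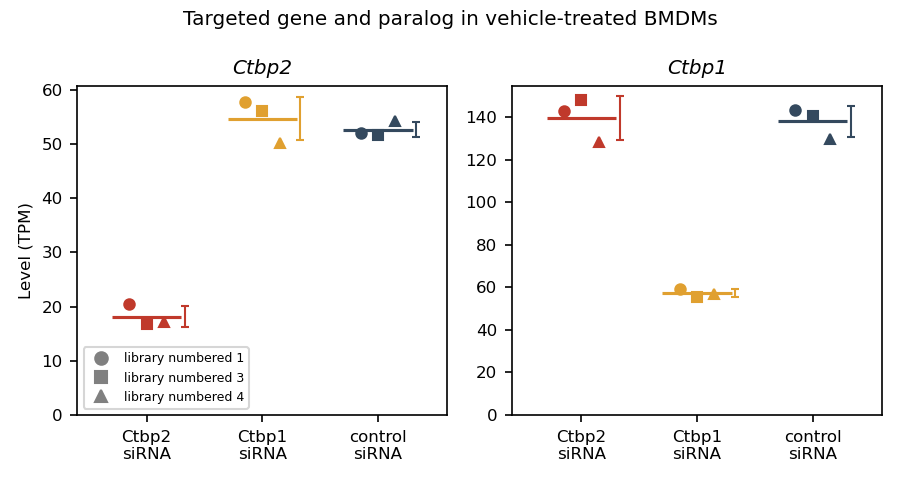
TPM of Ctbp2 and of its paralog Ctbp1 in vehicle-treated BMDMs with Ctbp2 siRNA, Ctbp1 siRNA or control siRNA. Points are libraries, with the shape giving the library's number, horizontal lines are means and bars are SD (n = 3). Ctbp2 lies at 16.9 to 20.4 TPM with Ctbp2 siRNA, below all other libraries, while Ctbp1 overlaps between Ctbp2 siRNA and control siRNA.

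Of 7918 genes tested, 81 were called between Ctbp2 siRNA and control siRNA (1.02%): 40 rose (0.505%) and 41 fell (0.518%). Most changes were small. The genes that rose had log2 fold changes of 0.14 to 1.04, with 14 of them at 1.5-fold or more and 1 at 2-fold or more. The genes that fell, other than Ctbp2, had log2 fold changes of −0.17 to −0.61, with 1 of them, Cd28, at 1.5-fold or more. Over all tested genes the median log2 fold change was −0.03 and 36.2% of estimates were above 0. The values of the groups did not overlap for any of the 81, beside 23.4% of all tested genes without overlap. A further 12 tested genes had an estimate beyond 1 on the log2 scale in either direction without being called, and these are predicted genes, pseudogenes, microRNA genes and 1 gene without a symbol. The count moved with single libraries. It was 21, 46 and 32 without the Ctbp2 siRNA libraries numbered 1, 3 and 4, it was 22, 32 and 52 without the control libraries numbered 1, 3 and 4, and it was 147 without the LPS-treated control library numbered 4, which enters this comparison through the estimate of the spread and the filter on low genes. With median-of-ratios scaling of the TPM, 63 genes rose and 29 fell, in place of 40 and 41, and these included all 40 that rose and 29 of the 41 that fell.

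**Figure D2:**
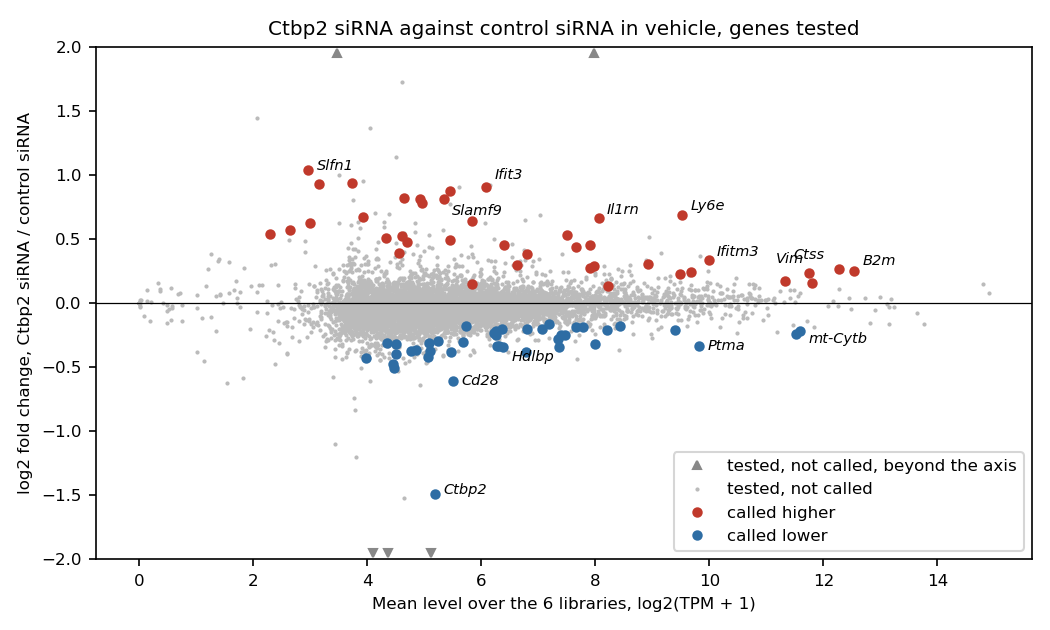
Each point is a tested gene, with its mean level over the 6 libraries on the x axis, log2(TPM + 1), and its log2 fold change, Ctbp2 siRNA over control siRNA in vehicle, on the y axis. Red points are the 40 genes called higher and blue points the 41 called lower, and triangles mark the 5 uncalled genes beyond the axis. Ctbp2 lies at −1.49, and the other called genes lie between −0.61 and 1.04.

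The antiviral effectors were the list with the most called members. It was also the longest of the 29 lists, which were written with earlier results of these data known. It holds IFIT proteins, which bind foreign RNA, ISG15, a ubiquitin-like modifier, and other interferon-induced restriction factors. Of 49 members 45 were tested, 12 rose, beside 0.505% of all tested genes, and 0 fell. Those that rose included Ifit1, Ifit2, Ifit3, Isg15, Rsad2, Ifitm3, Xaf1, Rtp4, Shisa5, Ifi44 and Znfx1. All 45 estimates were above 0, with a median log2 fold change of 0.29 beside −0.03 over all tested genes. In 32 of the 45 each Ctbp2 siRNA library was above each control library, beside 7.03% of all tested genes. The authors' deposited table has 24 of the 49 higher and 0 lower at its own adjusted p. Ifi27, named for its induction by interferon, is in none of the lists and fell. It lost the call without Ctbp2 siRNA library 4 (limma adjusted p = 0.159). In the authors' deposited table Ifi27 has a log2 fold change of −0.24 with an adjusted p of 0.0465.

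The IFIT genes showed the change by library. Ifit2 measured 52.4, 52.1 and 62.6 TPM with Ctbp2 siRNA, against 27.3, 27.1 and 36.1 TPM with control siRNA (log2 fold change 0.87, SE 0.14, limma adjusted p = 0.00663). Ifit3 measured 78.9, 82.3 and 101 TPM with Ctbp2 siRNA, against 39.4, 41.1 and 59.4 TPM with control siRNA (log2 fold change 0.91, SE 0.16, limma adjusted p = 0.0117). Ifit1 measured 28.5, 28.1 and 36.1 TPM with Ctbp2 siRNA, against 14.7, 16.3 and 20.5 TPM with control siRNA (log2 fold change 0.82, SE 0.16, limma adjusted p = 0.0247). In all of these the library numbered 4 was the highest of its group on both sides, and the groups did not overlap. The close copy Ifit3b, named after its values were seen, averaged 8.26 TPM with Ctbp2 siRNA and 4.43 TPM with control siRNA and was under the filter, and reads may be shared between it and Ifit3.

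The other members that rose included enzymes, a modifier and membrane proteins. Rsad2, which encodes viperin, an enzyme that makes a chain-terminating nucleotide, measured 33.3, 35.6 and 46.4 TPM with Ctbp2 siRNA, against 19.7, 20.0 and 25.9 TPM with control siRNA (log2 fold change 0.78, SE 0.16, limma adjusted p = 0.0269). Isg15 measured 71.6, 64.0 and 70.3 TPM with Ctbp2 siRNA, against 42.2, 38.4 and 50.9 TPM with control siRNA (log2 fold change 0.64, SE 0.14, limma adjusted p = 0.0435). None of these overlapped between the groups. Rtp4, a chaperone of membrane receptors that is induced by interferon, measured 202, 205 and 237 TPM with Ctbp2 siRNA, against 143, 138 and 163 TPM with control siRNA (log2 fold change 0.53, SE 0.08, limma adjusted p = 0.00663). Ifitm3, which blocks virus entry at endosomes, measured 1125, 1193 and 1085 TPM with Ctbp2 siRNA, against 880, 916 and 896 TPM with control siRNA (log2 fold change 0.34, SE 0.07, limma adjusted p = 0.0412). Ifitm3 was the most abundant member, and its family member Ifitm2, with which reads may be shared, averaged 682 TPM with Ctbp2 siRNA and 588 TPM with control siRNA (limma adjusted p = 0.0696).

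Many of these calls were lost when 1 library was left out, which also makes its group smaller. Ifit2, Rtp4 and Shisa5 were called without any one of the 6 libraries, with an adjusted p of at most 0.0413. The number of members that rose was 5, 8 and 4 without the Ctbp2 siRNA libraries numbered 1, 3 and 4, it was 4, 4 and 12 without the control libraries numbered 1, 3 and 4, and it was 20 without the LPS-treated control library numbered 4. The adjusted p rose to 0.0656 for Ifit3 without control library 1, to 0.164 for Isg15 without Ctbp2 siRNA library 1, to 0.135 for Ifitm3 without control library 1, and to 0.119 and 0.125 for Ifit1 and Rsad2 without Ctbp2 siRNA library 4. In those fits the log2 fold changes of these 5 genes were 0.80, 0.61, 0.32, 0.70 and 0.64, in the same order. The median of the list stayed between 0.24 and 0.33 when any of the 6 libraries was left out. Levels of these genes also varied with the library's number: library 4 was the highest of the 3 for 38 of the 45 members with Ctbp2 siRNA and for 39 of 45 with control siRNA. Between libraries of the same number, Ctbp2 siRNA was higher for 43, 45 and 44 of the 45 members in libraries 1, 3 and 4, with median log2 differences of 0.28, 0.29 and 0.26. The labels do not say that a number marks a shared mouse or day.

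**Figure D3:**
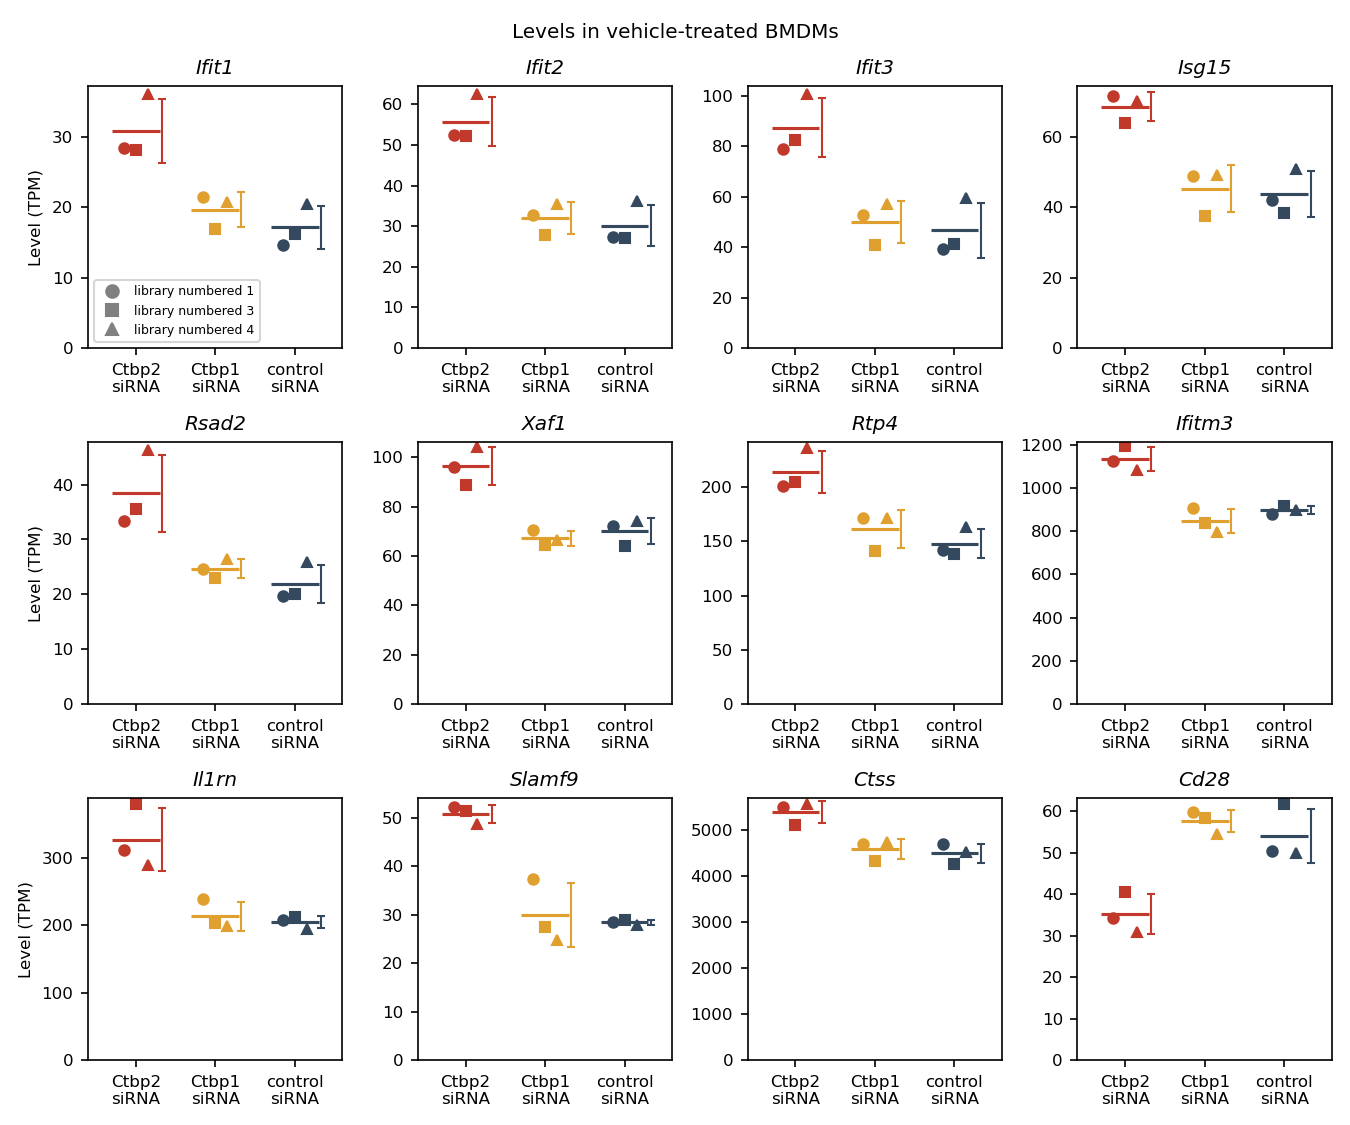
TPM of 12 genes in vehicle-treated BMDMs with Ctbp2 siRNA, Ctbp1 siRNA or control siRNA. Points are libraries, with the shape giving the library's number, horizontal lines are means and bars are SD (n = 3). The Ctbp2 siRNA points lie above all control points for the first 11 genes and below them for Cd28, and the Ctbp1 siRNA points lie near the control points.

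Neighbouring interferon-linked lists held 1 call or 0 each here, beside 0.505% of all tested genes called higher. The authors' deposited table has 3 OAS genes, 2 GBP and IRG GTPases and 5 nucleic acid sensors and adaptors higher at its own adjusted p. Tgtp2, an interferon-induced GTPase that acts on pathogen vacuoles, measured 14.8, 15.7 and 18.9 TPM with Ctbp2 siRNA, against 7.65, 7.76 and 8.82 TPM with control siRNA (log2 fold change 0.94, SE 0.16, limma adjusted p = 0.00961). It was the single called member of 12 tested GBP and IRG GTPases, whose median was 0.17, and reads may be shared with its copy Tgtp1. Without control library 1 its adjusted p was 0.0508. Oasl2, of the family that senses double-stranded RNA, was the single called member of 8 tested OAS and RNase L genes (216, 226 and 249 TPM with Ctbp2 siRNA, against 169, 145 and 198 TPM with control siRNA, limma adjusted p = 0.0491). Its adjusted p was 0.185 without Ctbp2 siRNA library 4. The median of these 8 genes was 0.29, as in the antiviral list, with 7 estimates above 0, beside 36.2% of all tested genes. Without overlap, 5 of the 8 were higher, beside 7.03% of all tested genes, and 1 was lower, beside 16.3%. Of 22 tested nucleic acid sensors and adaptors 0 were called, with a median of 0.15, and Ifi204, a DNA sensor of the PYHIN family, lay next to the threshold at 193 ± 16.6 TPM with Ctbp2 siRNA and 148 ± 14.8 TPM with control siRNA (SD, n = 3, limma adjusted p = 0.0501). Its relative Ifi209 rose, at 50.4 ± 6.38 TPM with Ctbp2 siRNA, against 35.4 ± 3.63 TPM with control siRNA (SD, n = 3, limma adjusted p = 0.0491), and lost the call without Ctbp2 siRNA library 4 (limma adjusted p = 0.197).

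Interferon itself and its receptors showed no such difference. Ifnb1, which encodes interferon beta, and Ifng were listed at 0 TPM on average in both groups, and these were named after their values were seen. Of 9 tested members of the list of interferons and their receptors, which also holds the phosphatase gene Ptpn6, 0 were called, with estimates from −0.13 to 0.07. Ifnar2, a chain of the type I interferon receptor, averaged 143 TPM with Ctbp2 siRNA and 136 TPM with control siRNA (limma adjusted p = 0.601). Of the 13 tested IRF and STAT factors 1 rose, a gene that the antiviral list also holds, and 0 fell, with a median of 0.00. Without overlap, 5 of the 13 were higher, beside 7.03% of all tested genes, and 1 was lower, beside 16.3%. The authors' deposited table has 4 of this list higher and 0 lower at its own adjusted p. Irf7, the factor that amplifies interferon production, measured 150, 147 and 180 TPM with Ctbp2 siRNA, against 97.8, 79.7 and 121 TPM with control siRNA, which did not overlap but missed the threshold (log2 fold change 0.69, 95% interval 0.34 to 1.03, limma adjusted p = 0.0582). In the authors' deposited table Irf7 has a log2 fold change of 0.72 with an adjusted p of 0.000178. Irf8 averaged 135 TPM in both groups.

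Antigen presentation moved in part. Of 24 tested MHC class I genes B2m, H2-D1 and Tapbp rose, beside 0.505% of all tested genes, and 0 fell, with a median of 0.09. Without overlap, 11 of the 24 were higher, beside 7.03% of all tested genes, and 0 were lower. The authors' deposited table has 7 of the 24 higher and 0 lower at its own adjusted p. B2m, the invariant light chain, measured 6551, 6231 and 6583 TPM with Ctbp2 siRNA, against 5298, 5237 and 5750 TPM with control siRNA (log2 fold change 0.25, SE 0.05, limma adjusted p = 0.0262). H2-D1, a class I heavy chain that shares sequence with other class I genes, measured 2752, 2602 and 2844 TPM with Ctbp2 siRNA, against 2477, 2319 and 2477 TPM with control siRNA (limma adjusted p = 0.0457). Tapbp encodes tapasin, which loads peptides. The 3 calls were lost without Ctbp2 siRNA library 1 or 4, or without control library 1 or 3, with adjusted p-values of up to 0.118, 0.185 and 0.203 for B2m, H2-D1 and Tapbp. Among 9 tested MHC class II genes Ctss rose, the gene of cathepsin S, the protease that trims the invariant chain: 5500, 5124 and 5571 TPM with Ctbp2 siRNA, against 4694, 4277 and 4523 TPM with control siRNA (log2 fold change 0.26, SE 0.05, limma adjusted p = 0.0233, and 0.109 without Ctbp2 siRNA library 4). H2-Aa averaged 57.4 TPM with Ctbp2 siRNA and 57.6 TPM with control siRNA, and Cd74 254 and 251 TPM.

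Among signalling molecules, the clearest were a cytokine antagonist and a surface receptor. Il1rn, which encodes the interleukin-1 receptor antagonist, measured 311, 380 and 290 TPM with Ctbp2 siRNA, against 208, 212 and 195 TPM with control siRNA (log2 fold change 0.66, SE 0.11, limma adjusted p = 0.0105). Slamf9, a SLAM family receptor of myeloid cells, measured 52.3, 51.4 and 48.7 TPM with Ctbp2 siRNA, against 28.5, 29.0 and 27.8 TPM with control siRNA (log2 fold change 0.82, SE 0.13, limma adjusted p = 0.00663). Both kept the call without any one of the 6 libraries. Il1rn was the single called member of 14 tested cytokines, and the chemokine gene Ccl8 that of 16 tested chemokines, at 17.6, 20.3 and 15.1 TPM with Ctbp2 siRNA, against 10.8, 11.4 and 9.68 TPM with control siRNA (limma adjusted p = 0.0152, and up to 0.0701, without Ctbp2 siRNA library 1). Of 22 NF-kB genes and of 16 tested immediate early genes 0 were called. Tnf averaged 34.9 TPM with Ctbp2 siRNA and 37.1 TPM with control siRNA, and Il6 was listed at 0 TPM in both, and neither was picked by the rule for named genes.

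**Figure D4:**
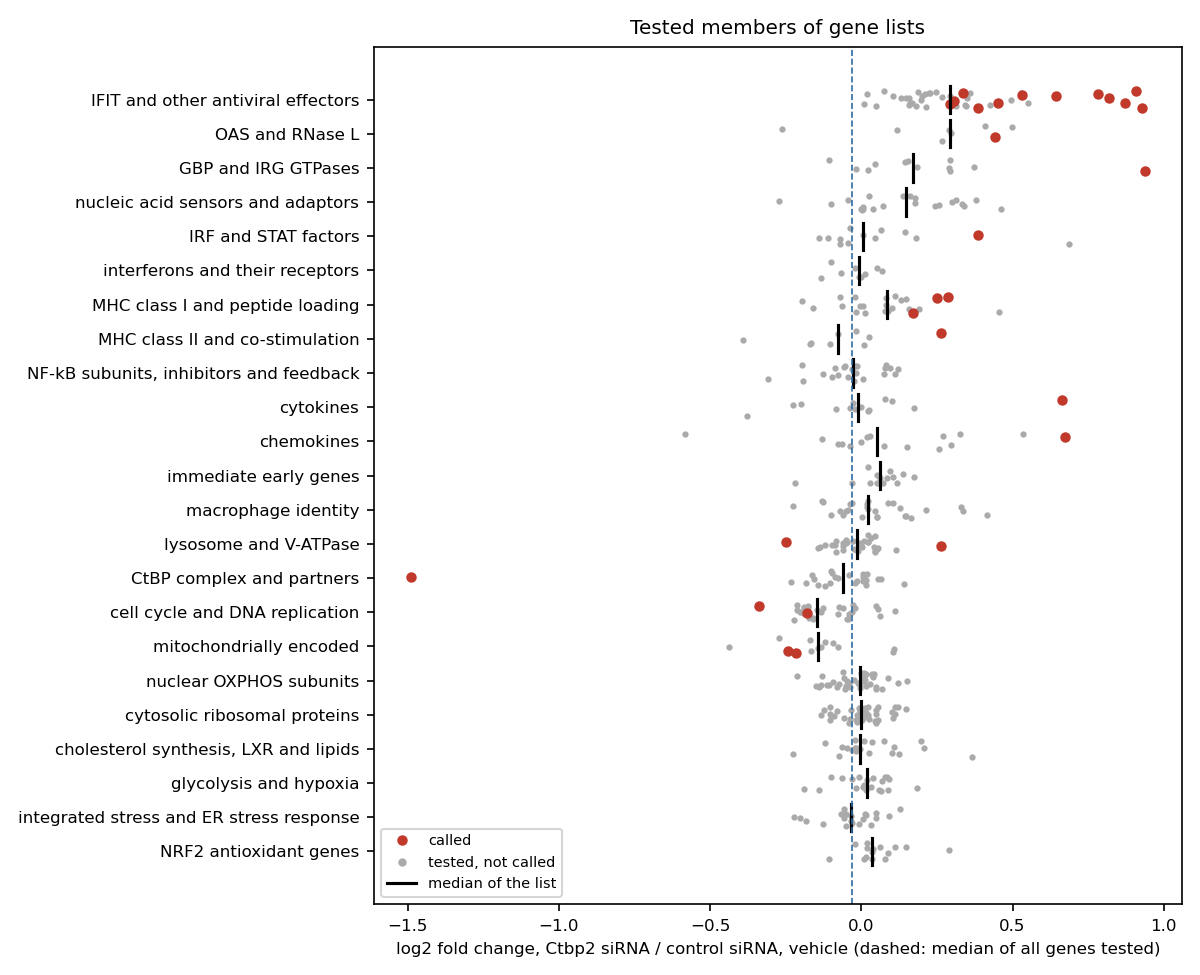
Log2 fold change, Ctbp2 siRNA over control siRNA in vehicle, of the tested members of 23 gene lists. Each point is a gene, red where it was called, black bars are list medians and the dashed line is the median of all tested genes, −0.03. The antiviral list has its median at 0.29 with all 45 points above 0, and the median of the NF-kB list lies at −0.03.

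Other genes that rose had varied roles. Ly6e, a membrane protein that restricts virus entry, measured 873, 931 and 917 TPM with Ctbp2 siRNA, against 535, 548 and 604 TPM with control siRNA (log2 fold change 0.69, SE 0.13, limma adjusted p = 0.0247, and 0.107 without control library 1). The inducible Hsp70 genes Hspa1a and Hspa1b are near-identical, so reads between them cannot be told apart. Both were low here and entered the test through LPS-treated libraries, as did Slfn1, Slfn4 and Ifi44. Hspa1b measured 6.92, 6.58 and 5.89 TPM with Ctbp2 siRNA, against 4.44, 3.79 and 3.81 TPM with control siRNA (log2 fold change 0.57, SE 0.09, limma adjusted p = 0.00698). Slfn1, of the Schlafen family that interferon induces, had the largest estimate of all genes that rose, at 8.66, 7.28 and 12.7 TPM with Ctbp2 siRNA, against 3.73, 2.91 and 5.81 TPM with control siRNA (log2 fold change 1.04, SE 0.22, limma adjusted p = 0.0321, and 0.159 without Ctbp2 siRNA library 4). Fgfr1, a growth factor receptor, Serpinb9b, a protease inhibitor, and Smpdl3a, a phosphodiesterase, also rose, with log2 fold changes of 0.48, 0.51 and 0.28.

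The genes that fell did so by less. Cd28, best known as the co-stimulatory receptor of T cells, had the largest fall after Ctbp2, at 34.4, 40.4 and 30.9 TPM with Ctbp2 siRNA, against 50.5, 61.7 and 50.0 TPM with control siRNA (log2 fold change −0.61, SE 0.12, limma adjusted p = 0.0248, and 0.131 without Ctbp2 siRNA library 4). The lymphocyte markers, a list without Cd28, summed to at most 6.11 TPM in these libraries. Hdlbp, the RNA-binding protein vigilin, measured 70.0, 74.2 and 73.4 TPM with Ctbp2 siRNA, against 89.7, 94.3 and 92.6 TPM with control siRNA (log2 fold change −0.34, SE 0.05, limma adjusted p = 0.00275). Ptma, the chromatin protein prothymosin alpha, whose many pseudogene copies may share its reads, measured 816, 796 and 781 TPM with Ctbp2 siRNA, against 971, 1056 and 996 TPM with control siRNA (log2 fold change −0.34, SE 0.04, limma adjusted p = 0.00275). The groups did not overlap for any of these genes.

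Several genes of membrane traffic also fell, and they are put side by side after their values were seen and not as a tested group. Washc5, a subunit of the endosomal WASH complex, measured 45.3, 45.5 and 44.0 TPM with Ctbp2 siRNA, against 53.0, 57.6 and 56.3 TPM with control siRNA (log2 fold change −0.30, SE 0.05, limma adjusted p = 0.00663). Arl8a, a small GTPase that positions lysosomes, measured 163, 160 and 159 TPM with Ctbp2 siRNA, against 187, 198 and 188 TPM with control siRNA (log2 fold change −0.25, SE 0.04, limma adjusted p = 0.00663). Calu, the calcium-binding protein calumenin of the secretory pathway, measured 68.5, 69.6 and 65.5 TPM with Ctbp2 siRNA, against 81.4, 92.5 and 83.7 TPM with control siRNA (log2 fold change −0.33, SE 0.05, limma adjusted p = 0.00663). Hdlbp, Ptma, Washc5, Arl8a and Calu kept the call without any one of the 6 libraries and in each other setting tried, as did Ifit2, Il1rn, Rtp4, Shisa5 and Slamf9 among the genes that rose. Cog3, a subunit of a Golgi tethering complex, and Osbpl3, a lipid-binding protein, fell by 0.31 and 0.32 on the log2 scale. Both lost the call without Ctbp2 siRNA library 1 (limma adjusted p = 0.0686 and 0.065). Of 34 tested lysosome and V-ATPase genes Arl8a was the single one to fall and Ctss the single one to rise, and the acid protease gene Ctsd averaged 9383 TPM with Ctbp2 siRNA and 9171 TPM with control siRNA (limma adjusted p = 0.81).

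Among mitochondrially encoded and proliferation genes, 2 of 13 and 2 of 31 tested members were called, all lower, beside 0.518% of all tested genes called lower. Of 13 mitochondrially encoded genes mt-Cytb and mt-Nd4l fell, the median was −0.14, and 8 were lower without overlap, beside 16.3% of all tested genes. With median-of-ratios scaling over all genes, chosen after seeing the data, 0 of the 13 were called. Cytochrome b, mt-Cytb, measured 2811, 2895 and 2820 TPM with Ctbp2 siRNA, 2675, 2849 and 2927 TPM with Ctbp1 siRNA, and 3458, 3262 and 3191 TPM with control siRNA (Ctbp2 siRNA against control, log2 fold change −0.22, SE 0.04, limma adjusted p = 0.0156). All genes with a symbol that starts with mt-, which are more than the 13 of the list, took 4.48 to 4.70% of TPM with Ctbp2 siRNA. They took 4.52 to 4.90% with Ctbp1 siRNA and 4.90 to 5.22% with control siRNA. Without control library 1 the adjusted p of mt-Cytb was 0.0908, and mt-Nd4l lost the call whichever of the 6 libraries was left out (up to 0.177, without Ctbp2 siRNA library 4) and with median-of-ratios scaling, as H2az1 did with that scaling. None of the 41 tested nuclear genes of oxidative phosphorylation was called, at a median of −0.01, while limma gave 1052 of all tested genes an unadjusted p under 0.05. Of 31 tested cell cycle and replication genes H2az1, a histone variant, and Ptma fell, and the median was −0.15. In 3 of the 31 each Ctbp2 siRNA library was below each control library, beside 16.3% of all tested genes, and 4 of the 31 estimates were above 0, beside 36.2% of all tested genes. H2az1 lost the call in 5 of the 6 fits without 1 library, with an adjusted p of up to 0.188 (without Ctbp2 siRNA library 1). Mki67, the proliferation marker, averaged 37.5 TPM with Ctbp2 siRNA and 43.8 TPM with control siRNA (limma adjusted p = 0.153) and was named after its values were seen. The library numbered 3 was the highest of its group for 26 of these 31 genes with Ctbp2 siRNA and for 22 of 31 with control siRNA.

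The genes of CtBP complexes other than Ctbp2 were not called. Of 24 tested members Ctbp2 was the single call, with a median of −0.06. Estimates were below 0 for 15 and above 0 for 9 of the 24, beside 36.2% of all tested genes above 0. In 9 of the 24, Ctbp2 among them, each Ctbp2 siRNA library was below each control library, beside 16.3% of all tested genes. Without overlap 0 were higher. The list, Ctbp2 included, summed to 1310 to 1320 TPM with Ctbp2 siRNA, against 1420 to 1430 TPM with control siRNA. Ehmt2 averaged 115 TPM with Ctbp2 siRNA and 127 TPM with control siRNA, Zeb2 156 and 155 TPM, and Hmg20b, a subunit of the LSD1 complex, 109 and 128 TPM (limma adjusted p of at least 0.169). Of the lists on cholesterol (21 tested), glycolysis (21), cytosolic ribosomal proteins (43), stress responses (21) and NRF2 targets (15) 0 members were called by limma, with medians between −0.03 and 0.04. Without overlap, 1, 9, 5, 2 and 5 of their members were higher, in the same order, beside 7.03% of all tested genes. Those lower without overlap were 0, 2, 6, 4 and 0, beside 16.3%. The authors' deposited table has 2 ribosomal, 2 glycolysis and 3 NRF2 genes higher at its own adjusted p. Over all genes it has 159 higher and 64 lower. Of the 81 genes called here 68 are also called there, all 68 in the same direction, and 5 have no adjusted p in it.

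Libraries with Ctbp1 siRNA show which of these genes also differ from cells given another targeting siRNA. Ctbp2 siRNA against Ctbp1 siRNA called 75 of 7918 genes (0.947%), 41 higher (0.518%) and 34 lower (0.429%). The 2 comparisons share the Ctbp2 siRNA libraries, so their values are given side by side. Of the 40 genes that rose against control, 16 were also higher than with Ctbp1 siRNA, which is 40.0% of the first list and 39.0% of the second, and of the 41 that fell 21 were also lower, which is 51.2% and 61.8%. Ifit2 (32.7, 27.9 and 35.6 TPM with Ctbp1 siRNA), Ifit3, Tgtp2, Xaf1, Rtp4, Ifitm3, Znfx1, Slfn4, Il1rn (239, 203 and 199 TPM), Slamf9, Serpinb9b, Hspa1a, Hspa1b, Ctss and Ms4a7 were among the 16 higher genes. Hdlbp, Ptma, Washc5, Arl8a, Calu, Cd28 (59.9, 58.5 and 54.6 TPM), Tnks and Ywhag were among the 21 lower ones. For Ywhag, a 14-3-3 adaptor, the values were 205, 200 and 210 TPM with Ctbp2 siRNA, 252, 261 and 264 TPM with Ctbp1 siRNA, and 230, 240 and 229 TPM with control siRNA, so both differences were falls.

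Other calls looked alike with both targeting siRNAs. Vim, which encodes the filament protein vimentin, measured 3700, 3752 and 3717 TPM with Ctbp2 siRNA, 3651, 3521 and 3566 TPM with Ctbp1 siRNA, and 3108, 3176 and 3216 TPM with control siRNA. It rose against control (log2 fold change 0.23, limma adjusted p = 0.00663) and was not called against Ctbp1 siRNA (0.06, 95% interval −0.02 to 0.13, limma adjusted p = 0.584). Hnrnpa2b1, an RNA-binding protein, measured 614, 640 and 632 TPM with Ctbp2 siRNA, 643, 639 and 672 TPM with Ctbp1 siRNA, and 734, 738 and 710 TPM with control siRNA. It fell against control (−0.21, limma adjusted p = 0.0105, and 0.067 without Ctbp2 siRNA library 1) and was not called against Ctbp1 siRNA (−0.05, 95% interval −0.13 to 0.02, limma adjusted p = 0.631). Rbm39 and Sfpq, splicing factors, had differences to Ctbp1 siRNA of 0.00 and −0.04 on the log2 scale, and these 4 genes and Ms4a7 were named after their values were seen. A missed threshold does not show equality. For the antiviral list the median was 0.25 against Ctbp1 siRNA, with 8 members higher and all 45 estimates above 0, and 0.02 for Ctbp1 siRNA against control, a comparison that called 17 genes in all (0.215%), 4 higher (0.0505%) and 13 lower (0.164%), and 0 members of the list.

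The same siRNA was also compared in LPS. Those libraries enter the vehicle comparison through the shared estimate of the spread and the filter on low genes, so the 2 sets of calls are not independent. In LPS 251 of 7918 genes were called (3.17%), 61 higher (0.77%) and 190 lower (2.4%). The balance turned with the scaling: median-of-ratios scaling gave 124 higher and 81 lower, and the same over all genes 160 higher and 63 lower. Of the 40 genes that rose in vehicle 9 also rose in LPS, which is 22.5% of the vehicle list and 14.8% of the LPS list, and of the 41 that fell 20 also fell, which is 48.8% and 10.5%. None was called in the opposite direction. Those that rose in both were Il1rn, Ccl8, Hspa1a, Hspa1b, Serpinb9b, Fgfr1, Smpdl3a, Ctss and H2-D1. Those that fell in both were Ctbp2, Cd28, Hdlbp, Ptma, Washc5, Calu, Arl8a, Wdr7, Lrrc42, Etnk1, Cog3, Calm3, Tkt, Hadhb, Ywhag, Fabp4, Pcp4l1, Ifi27, Ankrd13a and Cuedc2. In LPS, Cd28 fell by 0.85 and Wdr7, which is linked to acidification of vesicles, by 0.64 on the log2 scale. With median-of-ratios scaling 20 genes rose and 15 fell in both. With only the 6 LPS libraries in the fit 4 genes were called in LPS, and the shared calls were then 0 that rose and 2 that fell.

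By limma, none of the 12 antiviral effectors that rose in vehicle was called higher in LPS, while the authors' deposited table has Shisa5 (log2 fold change 0.24, adjusted p = 1.56e-05) and Ifitm3 (0.29, adjusted p = 0.0132) higher there. In LPS 0 of the 45 tested members rose and 4 fell, the median was −0.14, and 9 estimates were above 0, beside 30.9% of all tested genes. The difference of the effect between LPS and vehicle was tested directly for all genes and was called for 8 (0.101%), 1 higher (0.0126%) and 7 lower (0.0884%). For Ifit2 it was −1.37 (SE 0.19, limma adjusted p = 0.00891), since Ifit2 measured 99.7, 99.3 and 116 TPM with Ctbp2 siRNA in LPS, against 156, 168 and 124 TPM with control siRNA in LPS, the reverse order of the vehicle libraries. The LPS difference alone was not called (log2 fold change −0.50, limma adjusted p = 0.0571). Across all 45 members the median difference was −0.42, with 4 called and all 45 estimates below 0. The count of 8 depended on the libraries: it was 38 without the LPS-treated control library numbered 4 and 15 without the vehicle control library numbered 4, and it lay between 1 and 5 without any other single library, except for 10 without the Ctbp2 siRNA vehicle library numbered 1.

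**Figure D5:**
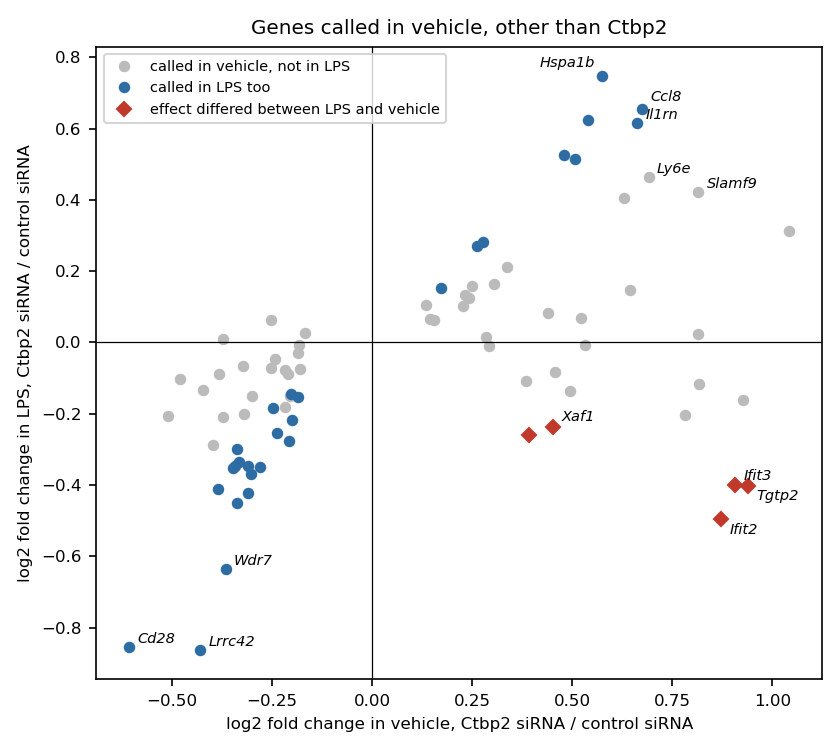
Log2 fold change, Ctbp2 siRNA over control siRNA, in vehicle (x axis) and in LPS (y axis) for the genes called in vehicle, other than Ctbp2. Blue points were called in LPS too, red diamonds had an effect that differed between LPS and vehicle, and grey points were called in vehicle and not in LPS. Cd28, Wdr7 and Lrrc42 lie below 0 on both axes, while Ifit2, Ifit3 and Tgtp2 lie above 0 in vehicle and below 0 in LPS.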

How the data were processed

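PolyA RNA of BMDMs was sequenced with an unstranded TruSeq kit, so overlapping genes on opposite strands cannot be told apart, per the labels' protocols. The authors deposited TPM per gene, described per the file headers as gene-level scaled TPM on mm39, together with tables of mean normalized counts (a signal), log2 fold changes with their errors, and p-values. The submitters' processing notes name FastQC, Salmon 1.9.0, DESeq2 1.44.0 and R 4.4.1, and the builds GRCm38 and GRCm39. TPM keeps no depth, so the counting error of each value is unknown. Sequencers of 2 kinds are named without saying which sample ran on which.

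The fits used log2(TPM + 1) of 18 BMDM libraries with 1 coefficient per group, for the 7918 of 22996 genes that averaged 10 TPM or more, in limma 3.58.1 (R 4.3.3) with trended, robust moderation and Benjamini-Hochberg adjustment within each of 5 comparisons. All 18 libraries share 1 estimate of the spread. The fit was tested on simulated data, and 95% intervals are limma's. Tables and plots were made in Python 3.11.15 with pandas 2.3.3 and matplotlib 3.10.9. Alternatives were pseudocounts, filters, scalings, fewer libraries, plain moderation, a block on the library's number and leaving out each library. The filter looks at all 18 libraries, and members of a list that passed it are called tested.

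The comparison, the 29 gene lists and the tests were chosen with earlier results of these data known. Named genes were Ctbp1 and Ctbp2, the 20 largest changes in each direction among those called, called members of the lists, up to 4 uncalled members of highest TPM per list, genes called in both vehicle and LPS, the 10 largest in each direction against Ctbp1 siRNA and the 5 largest in each direction for the difference between LPS and vehicle, without predicted genes and pseudogenes. Promoter sequences came from RefSeq on GRCm38.p6, matched by symbol, and their coordinates were not joined to any from the files. The deposited J774.1 table was not used here. Values of some genes are not reported here.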

Additional observations from a re-analysis of the deposited data

Results flagged for a closer look

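The effect of Ctbp2 siRNA against control siRNA differed between LPS and vehicle for 7 named genes, by limma's test of the difference itself. The difference was −1.37 for Ifit2 (adjusted p = 0.00891), −1.34 for Tgtp2 (0.0257), −1.31 for Ifit3 (0.033), −0.694 for Irgm1 (0.0333), −0.691 for Xaf1 (0.0236), −0.58 for Tor3a (0.00891) and 0.484 for Egr2 (0.033), on the log2 scale. Tor3a lies outside the rule for named genes and was named after its values were seen. Ifit3 measured 76.2, 71.9 and 84.1 TPM with Ctbp2 siRNA in LPS, against 99.5, 110.0 and 97.5 TPM with control siRNA in LPS, and the vehicle libraries had the other order. Irgm1, an immunity-related GTPase, measured 100, 105 and 118 TPM with Ctbp2 siRNA in LPS, against 152, 150 and 127 TPM with control siRNA in LPS. Egr2, a zinc finger factor, measured 70.3, 72.3 and 81.2 TPM with Ctbp2 siRNA in LPS, against 51.4, 53.0 and 46.7 TPM with control siRNA in LPS, and it was at 62.2 to 66.8 TPM with Ctbp2 siRNA and 58.7 to 64.5 TPM with control siRNA in vehicle.

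When each of the 12 libraries was left out in turn, Tor3a kept the call every time (adjusted p up to 0.0381) and Ifit2 lost it once (0.0508, without vehicle control library 1). Ifit3, Irgm1, Tgtp2, Egr2 and Xaf1 lost it 9, 9, 8, 8 and 7 times, with adjusted p up to 0.127, 0.149, 0.117, 0.127 and 0.102.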

How the results depend on the processing

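Ctbp2 was called in every setting tried, Ctbp1 in none (−0.03 to 0.08), and the median of the antiviral list lay between 0.237 and 0.336. The 81 genes called against control in vehicle became 45 without a filter, 45 with plain moderation, 185 with the replicate block, 147 without LPS control library 4, and 21 to 52 with 1 compared library left out. They became 119 with the 9 vehicle libraries, with 60 of the 81 among them. With the libraries compared alone they became 76, with 43 of the 81 among them. With median-of-ratios scaling over all genes, a setting chosen after seeing the data, 81 rose and 22 fell. The 75 genes called against Ctbp1 siRNA became 160 with the replicate block, 157 without LPS control library 4, 113 with the 9 vehicle libraries, 36 with the libraries compared alone, and 35 to 63 with 1 left out, and scaling gave 64 higher and 25 lower. The 251 genes called in LPS became 132 without a filter, 457 with the replicate block, 161 without LPS control library 4, 4 with the libraries compared alone, and 107 to 330 with 1 left out. Scaling gave 124 higher and 81 lower there, and scaling over all genes 160 and 63. The 8 genes whose effect differed between LPS and vehicle became 4 with a mean of at least 1 TPM, 2 with either scaling, 14 with the replicate block, 3 with plain moderation, 38 without LPS control library 4, 1 to 38 with 1 left out, and 0 of 22857 by limma without a filter, where 1435 had an unadjusted p under 0.05. The causes were not tested.

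The main fit did not pair the samples by number. Deviations of same-numbered libraries from their group means correlated at 0.087, 0.115 and −0.035 over all tested genes, which does not settle whether the numbers mark pairs. Library 4 was highest in both groups for most antiviral members, and library 3 for most cell cycle members. For the mitochondrially encoded genes it was library 3 with Ctbp2 siRNA (8 of 13) and library 1 with control siRNA (10 of 13). Ctbp2 siRNA libraries 1 and 3 correlated best with the control library of their own number and library 4 with control library 3. No named gene called in vehicle changed sign in any setting tried, while uncalled estimates near 0, such as that of Ctbp1, did. TPM without depth limits what can be said of low genes.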
